A study of Mus musculus with 30 samples.

Results

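The genes described here encode the chaperones of the endoplasmic reticulum (ER) and the sensors, targets and degradation factors of the unfolded protein response. They are 34 genes chosen by symbol, and 33 of them were measured, among 18781 genes, on 1 probe set each. Pdia4, a disulfide isomerase, had no probe set of its own and is not analysed further. The arrays came from male C57Bl/6 mice (wild-type C57Bl/6 J in the methods) aged 10-12 weeks, kept on normal chow. The labels name no other treatment. The fasted mice had food withdrawn for 24 h from 9 a.m., at the start of the light phase, and the fed mice kept their chow. Adipose tissue of the epididymal depot (WAT), skeletal muscle (SM) and liver (LIV) of both groups were hybridized separately, with 5 arrays per tissue and diet and 30 arrays in all. The tissues were dissected from the same mice, per the methods.

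Secreted and membrane proteins fold in the ER, where Hsp70- and Hsp90-type chaperones, lectin chaperones and disulfide isomerases act on them, and chains that fail to fold are exported to the cytosol and degraded (ER-associated degradation). When unfolded chains accumulate, the 3 sensors IRE1 (Ern1), PERK (Eif2ak3) and ATF6 (Atf6) are activated. IRE1 splices the Xbp1 mRNA, PERK phosphorylates the initiation factor eIF2 and thereby raises translation of ATF4, and cleaved ATF6 and spliced XBP1 induce chaperone and degradation genes. The arrays report mRNA levels and neither splicing of Xbp1, nor phosphorylation of PERK, nor cleavage of ATF6.

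The arrays of fed LIV 4 and fasted SM 5 stood apart from their groups, with a mean correlation to the other arrays of the group of 0.987 and 0.980, where every other array reached at least 0.991. On fasted SM 5 the mean log2 value of 9 lymphocyte markers was 8.14, against 4.04 to 4.30 on the other fasted SM arrays. Both were left out, and their values are given for members whose fed and fasted arrays they would bring into overlap and for some others. The paper also excluded fed LIV 4, but the muscle array it names as excluded is another, fasted SM 1. It gives both as outliers by principal component analysis. Leaving out fasted SM 1 in place of fasted SM 5 kept every member call in WAT, LIV and SM, and lost the difference of Sdf2l1 between WAT and LIV. The labelled tissues carried their markers: 9 adipocyte markers averaged 11.8 to 12.3 on the WAT arrays, 8 hepatocyte markers about 12.5 on the LIV arrays, and 12 muscle fibre markers 11.8 to 12.4 on the SM arrays. Values are log2 array values. A change is the fasted minus the fed mean with its standard error, and a gene rose or fell where the change was at least 1.3-fold at an adjusted p under 0.05. Genes counted as changed met the same rule, and other genes could pass the test under 1.3-fold. In whole tissue, fewer cells of a type and less RNA per cell cannot be told apart.

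With the 1.3-fold minimum, fasting moved a minority of these genes in each tissue, and most of the abundant chaperones were not among them. By the adjusted p alone, 5 members were higher and 13 lower in fasted WAT, 5 and 8 in LIV, and 10 and 7 in SM. Hspa5, Calr, Pdia3 and Manf were among those lower in WAT. Of the 33 genes, 14 rose or fell in at least 1 tissue, 6 of them in 1 tissue, 6 in 2 tissues and 2 in all 3. Shares over all genes are not given for the adjusted p alone, nor for at least 1, exactly 1 or exactly 2 tissues. Herpud1, an ER membrane protein of the degradation complex, rose in all 3 tissues, and Serpinh1, the collagen chaperone HSP47, fell in all 3. In WAT, 3 members rose and 6 fell (9.09% and 18.2% of the 33), where 7.99% of all genes rose and 7.75% fell. In LIV, 3 rose and 3 fell (9.09% each), against 3.53% and 4.01% of all genes. In SM, 6 rose and 3 fell (18.2% and 9.09%), against 7.8% and 5.78%. The median change of the members was -0.12 in WAT, -0.04 in LIV and 0.00 in SM, beside medians over all genes of 0.01, 0.03 and 0.00.

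**Figure D1:**
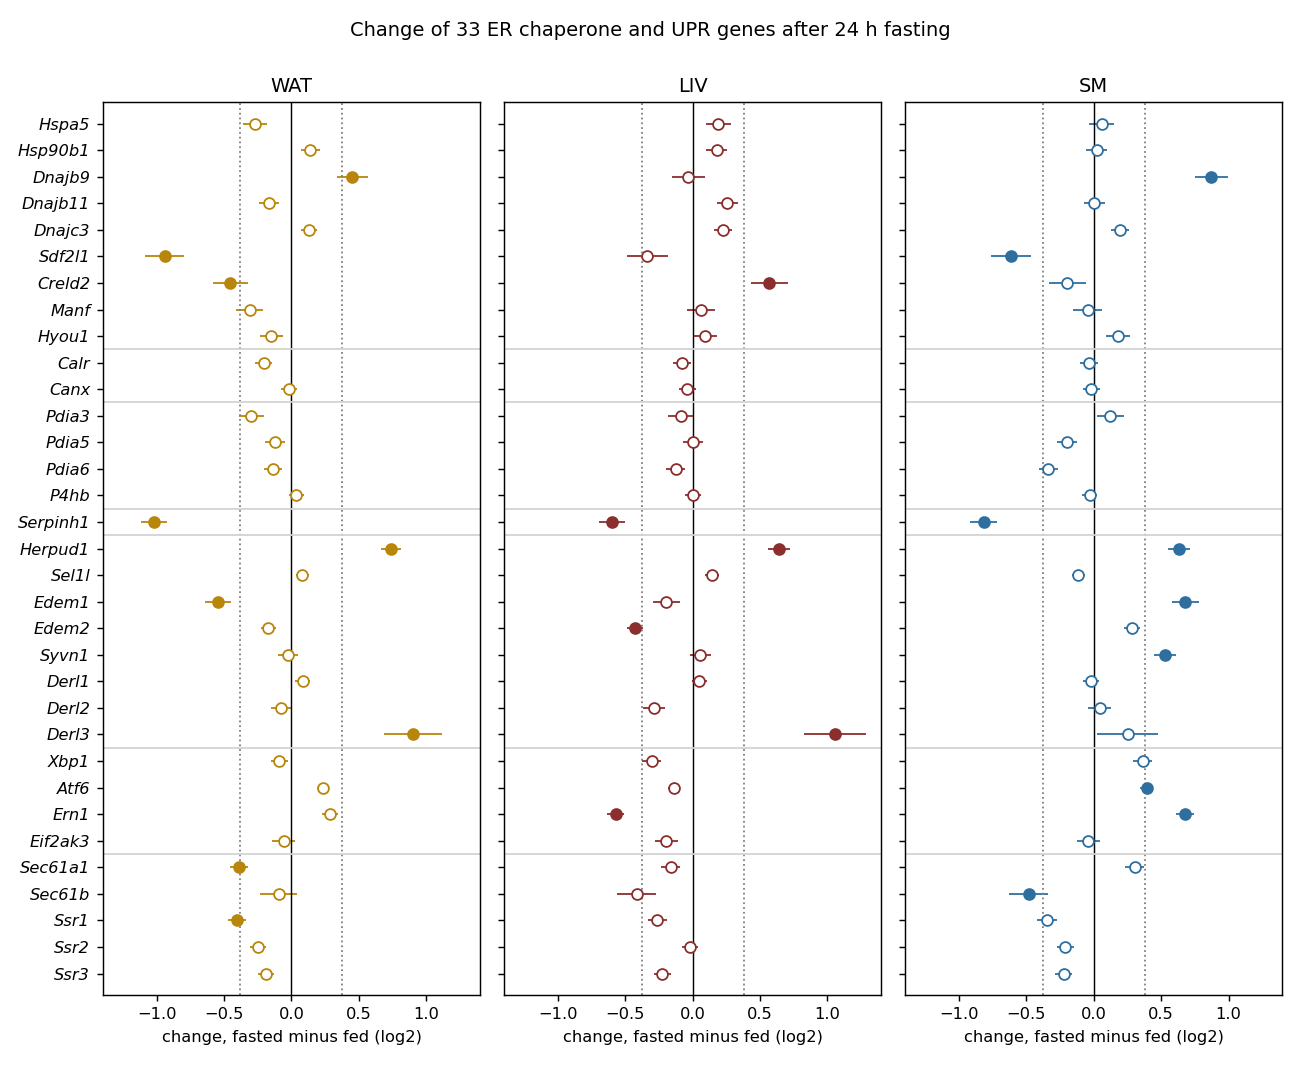
Change (fasted minus fed, log2, x axis) of the 33 genes (rows, grouped by role) in WAT, LIV and SM. Points are fitted changes, bars the standard error, filled points genes that rose or fell, and dotted lines 1.3-fold in either direction. Herpud1 lies to the right in all 3 panels and Serpinh1 to the left, while Hspa5, Calr, Canx and the disulfide isomerases stay between the dotted lines.

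The fed and fasted arrays of a tissue did not overlap for 12 of the 33 members in WAT (36.4%), 11 in LIV (33.3%) and 17 in SM (51.5%). Over all genes this held for 21.6%, 17.3% and 22.9%. All genes were counted whatever their level. The median log2 value of all probe sets was 5.02, and most members read above it, so these shares are not matched for level. With the omitted arrays put back it held for 7 members in LIV (21.2%, all genes 12%) and 14 in SM (42.4%, all genes 18.4%). Genes that rose or fell in all 3 tissues made up 1.02% of all genes, and genes that rose in 1 tissue and fell in another 1.3%. Among the members, Creld2, Edem1 and Ern1 moved in opposite directions in a pair of tissues. The changes in the tissues were also compared with each other in the same fit. The change differed between WAT and LIV for 7 members (21.2%, all genes 16.1%), between WAT and SM for 7 (21.2%, all genes 15.1%) and between SM and LIV for 9 (27.3%, all genes 15.3%). All 7 members that differed between WAT and SM had the lower change in WAT, and 8 of the 9 that differed between SM and LIV had the higher change in SM.

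Promoter sequences are shown for 5 members because the unfolded protein response acts on these genes through short elements near the start site. RefSeq promoters on build GRCm38.p6, from 250 bases before to 50 after the start, were at hand for 28 of the 34 members. The ER stress response element (ERSE), written CCAAT, 9 bases, CCACG and bound by NF-Y with ATF6 or XBP1, was searched on both strands. It was found in 9 of the 28 (32.1%) and in 39 of all 32851 promoters (0.119%). The 9 are Hspa5, Hsp90b1, Calr, Canx, Pdia6, Dnajc3, Creld2, Syvn1 and Derl3. ERSE-II, written ATTGG, 1 base, CCACG, was found in Dnajb11 and Herpud1 (7.14%) and in 12 of all promoters (0.0365%). The part CCACG alone, which both elements contain, was found in 85.7% of the members and 32.8% of all promoters, and CCAAT, also a part of both, in 75% and 37.4%. The C/EBP-ATF element TTGCATCA was found in Herpud1 (3.57% of the members, 0.895% of all promoters), and TGACGTGG, the core of a further element of the response, in 0 of the 28 and in 0.676% of all promoters. A match is a match of letters and not a measured binding site. The members were chosen as genes of this response, so their shares are a description and not a test. Member shares count genes, and the shares beside them count promoters.

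The promoters of Herpud1 (chr8:94386179-94386478, plus strand) and Serpinh1 (chr7:99353190-99353489, minus strand), the members that changed in all 3 tissues, are printed with those of Hspa5 (chr2:34771840-34772139, plus strand), Creld2 (chr15:88819396-88819695, plus strand) and Derl3 (chr10:75893148-75893447, plus strand), which hold an ERSE. Each is read 5′ to 3′ along the gene. Capitals mark the ERSE, or the ERSE-II in Herpud1.
Herpud1: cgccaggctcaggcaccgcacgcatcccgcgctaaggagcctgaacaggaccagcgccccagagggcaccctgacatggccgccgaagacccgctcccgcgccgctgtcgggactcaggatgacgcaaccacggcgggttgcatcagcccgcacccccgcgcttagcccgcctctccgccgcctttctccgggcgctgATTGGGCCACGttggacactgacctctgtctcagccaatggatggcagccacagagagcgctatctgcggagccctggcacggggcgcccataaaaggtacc
Serpinh1: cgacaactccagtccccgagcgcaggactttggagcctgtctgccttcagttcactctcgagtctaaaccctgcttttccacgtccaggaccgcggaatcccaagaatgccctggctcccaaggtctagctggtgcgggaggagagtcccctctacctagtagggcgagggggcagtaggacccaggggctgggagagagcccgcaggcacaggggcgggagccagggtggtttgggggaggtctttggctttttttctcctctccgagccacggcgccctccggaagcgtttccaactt
Hspa5: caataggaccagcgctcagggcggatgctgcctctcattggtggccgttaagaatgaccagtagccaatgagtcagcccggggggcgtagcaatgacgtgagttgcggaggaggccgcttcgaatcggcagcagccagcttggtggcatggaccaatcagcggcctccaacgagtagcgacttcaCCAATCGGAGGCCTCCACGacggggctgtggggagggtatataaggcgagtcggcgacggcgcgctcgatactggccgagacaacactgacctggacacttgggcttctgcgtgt
Creld2: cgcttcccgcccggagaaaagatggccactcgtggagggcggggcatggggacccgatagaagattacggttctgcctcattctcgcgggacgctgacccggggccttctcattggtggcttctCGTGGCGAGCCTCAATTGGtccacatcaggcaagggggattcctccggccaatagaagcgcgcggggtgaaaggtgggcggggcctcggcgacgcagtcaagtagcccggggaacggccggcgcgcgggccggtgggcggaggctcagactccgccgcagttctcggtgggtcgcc
Derl3: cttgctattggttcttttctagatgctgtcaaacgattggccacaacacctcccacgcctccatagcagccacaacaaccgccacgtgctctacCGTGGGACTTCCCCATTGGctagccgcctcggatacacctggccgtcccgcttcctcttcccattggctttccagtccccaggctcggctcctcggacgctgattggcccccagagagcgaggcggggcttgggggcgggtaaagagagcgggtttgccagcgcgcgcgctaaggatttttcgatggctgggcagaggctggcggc
The ERSE began 65 bases before the start in Hspa5, 126 in Creld2 and 156 in Derl3. It read in the direction of the gene in Hspa5 and in the opposite direction in Creld2 and Derl3. The promoter of Serpinh1 held neither element. Of the 9 members with an ERSE, 2 changed in WAT (Derl3 rose, Creld2 fell), 2 in LIV (both rose) and 1 in SM (Syvn1 rose), and 6 changed in no tissue. Of the other 18 measured members with a promoter, 6 changed in WAT, 4 in LIV and 7 in SM. Outside the members, 28 genes carried an ERSE and 11 of them were measured: 2 rose in WAT, 1 rose and 1 fell in LIV, and 1 rose in SM. Most of these calls were of a single gene, Acacb, with changes of 1.46 in WAT, -1.04 in LIV and 0.48 in SM. The others were Pan2 in WAT (0.52) and Acnat2 in LIV (1.33). Ero1b, an oxidase of disulfide formation in the ER and one of the 11, changed by 0.02 in WAT, -0.02 in LIV and 0.36 in SM, the last under 1.3-fold (adjusted p = 0.0128).

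Among the 9 chaperones and co-chaperones, 3 changed in WAT, 1 in LIV and 2 in SM. Hspa5 encodes BiP, the Hsp70 of the ER and the usual reporter of ER stress. Its fed WAT arrays read 10.57, 10.68, 10.52, 10.33 and 10.50 and its fasted WAT arrays 10.20, 10.15, 10.10, 10.29 and 10.51, a change of -0.27 ± 0.09 (adjusted p = 0.0199) that passed the test and stayed under 1.3-fold. In LIV the change of Hspa5 was 0.19 ± 0.09 (adjusted p = 0.199), with a 95% interval from -0.000534 to 0.379, and in SM 0.06 ± 0.09 (adjusted p = 0.742), with an interval from -0.13 to 0.25. The fed and fasted arrays overlapped in all 3 tissues. The changes of Hspa5 in WAT and LIV differed from each other by -0.46 ± 0.13 (adjusted p = 0.0107). Hsp90b1 (GRP94, the Hsp90 of the ER) changed by 0.14 in WAT, 0.18 in LIV and 0.02 in SM, with no adjusted p under 0.05.

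Sdf2l1 and Creld2 were the chaperone partners that fell in WAT. Sdf2l1, a partner of BiP complexes, read 7.74, 7.78, 7.38, 7.88 and 7.40 in fed and 6.28, 6.56, 6.52, 6.80 and 7.30 in fasted WAT, and fell by 0.94 ± 0.14 (adjusted p = 9.75e-06), or 1.92-fold. Every fasted array lay below every fed array, with fasted WAT 5 closest to the fed arrays. In SM it read 6.52, 6.45, 6.44, 6.33 and 6.35 in fed and 5.95, 5.55, 5.86 and 5.86 in fasted mice and fell by 0.61 ± 0.15 (adjusted p = 0.0033), and the omitted array fasted SM 5 read 6.39, inside the fed range. In LIV the fed arrays read 9.57, 9.51, 9.80 and 9.64 and the fasted arrays 9.52, 8.91, 9.22, 9.23 and 9.60, which overlapped, with 8.98 on the omitted fed LIV 4, and the change was -0.34 ± 0.15 (adjusted p = 0.158). The change of Sdf2l1 differed between WAT and LIV by -0.61 ± 0.21 (adjusted p = 0.0433).

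Creld2, a disulfide isomerase-like protein that is secreted from the ER under stress, moved down in WAT and up in LIV. It read 7.92, 8.05, 7.94, 7.86 and 7.94 in fed WAT and 7.54, 7.43, 7.20, 7.57 and 7.70 in fasted WAT, a change of -0.45 ± 0.13 (adjusted p = 0.00846), and the groups did not overlap. In LIV it read 9.03, 8.74, 9.60 and 9.25 in fed mice and 9.56, 9.44, 9.58, 9.90 and 10.14 in fasted mice, a change of 0.57 ± 0.14 (adjusted p = 0.00478). The LIV groups overlapped, since fed LIV 3 stood above 3 of the fasted arrays, and with LIV fitted on its own the adjusted p was 0.0717. In SM the fed arrays ran from 7.09 to 7.42, the fasted arrays from 6.88 to 7.14, and the change was -0.20 ± 0.14 (adjusted p = 0.356). The difference between its changes in WAT and LIV was -1.02 ± 0.19 (adjusted p = 0.000237), and between SM and LIV -0.77 ± 0.19 (adjusted p = 0.00596).

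Dnajb9 (ERdj4), a J-domain partner of BiP and a known target of XBP1, rose in WAT and SM. In SM it read 10.13, 10.03, 9.86, 10.02 and 9.92 in fed mice and 10.74, 10.86, 10.96 and 10.88 in fasted mice, and rose by 0.87 ± 0.12 (adjusted p = 3.95e-06), or 1.83-fold, with no overlap. In WAT the fed arrays read 9.67, 9.65, 9.53, 9.62 and 9.50 and the fasted arrays 10.07, 9.81, 9.71, 10.69 and 9.94, a rise of 0.45 ± 0.11 (adjusted p = 0.00357). Fasted WAT 4 was the highest, and without it the rise in WAT was 0.29, under 1.3-fold. In LIV the fed arrays read 10.35, 10.59, 10.70 and 10.54, the fasted arrays 10.42, 10.51, 10.39, 10.69 and 10.54, and the change was -0.03 ± 0.12 (adjusted p = 0.909). The omitted array fed LIV 4 read 9.80, below every other LIV array.

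The other 4 chaperone genes rose or fell in no tissue. Dnajb11 (ERdj3) and Dnajc3 (p58IPK, which also inhibits PERK) passed the test in LIV under 1.3-fold, with 0.26 ± 0.08 (adjusted p = 0.0278) and 0.23 ± 0.07 (adjusted p = 0.0206). Dnajc3 also passed it in SM under 1.3-fold, with 0.19 (adjusted p = 0.0329), and changed by 0.13 in WAT (adjusted p = 0.139). Dnajb11 differed between WAT and LIV by -0.43 ± 0.11 (adjusted p = 0.0055). Manf, a small ER protein that binds BiP, changed by -0.31 ± 0.10 (adjusted p = 0.0219) in WAT, and by 0.06 and -0.05 in LIV and SM. Hyou1 (GRP170), a nucleotide exchange factor for BiP, changed by -0.15, 0.09 and 0.18, with no adjusted p under 0.05, although its SM arrays did not overlap, with fed arrays at 7.26 to 7.48 and fasted arrays at 7.50 to 7.63. The omitted fasted SM 5 read 7.41, inside the fed range.

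None of the lectin chaperones and disulfide isomerases rose or fell in any tissue. Calr and Canx (calreticulin and calnexin) hold glycoproteins during folding. Calr changed by -0.21 ± 0.06 (adjusted p = 0.0133) in WAT, -0.08 in LIV and -0.04 in SM, and Canx by -0.02, -0.04 and -0.02. Among the isomerases, Pdia3 (ERp57), the partner of the lectin chaperones, changed by -0.30 ± 0.09 (adjusted p = 0.0151) in WAT and by -0.08 and 0.12 in LIV and SM, and the WAT change minus the SM change was -0.42 ± 0.13 (adjusted p = 0.0282). Pdia6 changed by -0.34 ± 0.07 (adjusted p = 0.000682) in SM, where the fasted arrays (7.43 to 7.66) lay below the fed arrays (7.74 to 8.08), and by -0.14 and -0.13 in WAT and LIV. Pdia5 and P4hb, which is also a subunit of collagen prolyl 4-hydroxylase, passed the test in no tissue, with changes of -0.12, 0.00 and -0.20 for Pdia5 and 0.04, 0.00 and -0.03 for P4hb.

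Of the 33 members, 19 rose or fell in no tissue, and the intervals of the change were narrow for most of them. Some passed the test under 1.3-fold, such as Pdia6 in SM, Xbp1 in LIV and SM, and Ssr3 in all 3 tissues. The 19 were picked for missing the call, which itself favours intervals inside 1.3-fold. The 95% interval lay inside 1.3-fold in either direction for 16 of the 19 in WAT, 15 in LIV and 17 in SM, and in all 3 tissues for 12: Hsp90b1, Calr, Canx, Pdia5, P4hb, Dnajc3, Hyou1, Sel1l, Derl1, Eif2ak3, Ssr2 and Ssr3. The intervals reached beyond it for Hspa5, Pdia3 and Manf in WAT, for Hspa5, Dnajb11, Xbp1 and Derl2 in LIV, and for Pdia6 and Xbp1 in SM.

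Serpinh1 binds procollagen in the ER. It read 8.57, 8.36, 8.54, 8.29 and 8.51 in fed and 7.46, 7.33, 7.37, 7.50 and 7.51 in fasted WAT, and fell by 1.02 ± 0.09 (adjusted p = 3.45e-09), or 2.03-fold. In SM it read 6.84, 6.85, 7.00, 6.67 and 6.90 in fed and 6.35, 6.08, 5.81 and 5.90 in fasted mice, with 5.75 on the omitted fasted SM 5, a change of -0.82 ± 0.10 (adjusted p = 4.88e-07). In LIV it read 5.43, 5.47, 5.26 and 5.33 in fed and 4.63, 5.12, 4.73, 4.60 and 4.79 in fasted mice, a change of -0.60 ± 0.10 (adjusted p = 0.000101). No fasted array overlapped a fed array in any of the tissues, and fasted LIV 2 came closest. The LIV arrays, at 4.60 to 5.47, read near the median of all probe sets (5.02), so the LIV change was measured at a low level. The change in WAT minus that in LIV was -0.42 ± 0.14 (adjusted p = 0.0315).

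Collagens are the clients of Serpinh1. Of 26 collagens and collagen-modifying enzymes, 9 fell and 2 rose in WAT, 3 fell and 0 rose in LIV, and 12 fell and 2 rose in SM, with median changes of -0.215, -0.124 and -0.255. Col3a1, a fibrillar collagen, changed by -0.76 ± 0.14 (adjusted p = 0.000165), -0.84 ± 0.15 (adjusted p = 0.000292) and -0.95 ± 0.15 (adjusted p = 2.63e-05) in WAT, LIV and SM. Col15a1, a basement membrane collagen, changed by -2.07 ± 0.17 (adjusted p = 3.18e-10) in WAT and -1.37 ± 0.18 (adjusted p = 1.02e-06) in SM, and Lox, which cross-links collagen, rose by 1.19 ± 0.18 (adjusted p = 7.72e-06) in WAT. Of 9 fibroblast markers, which include Col1a1 and Col3a1, 3 fell and 1 rose in WAT, 1 fell and 1 rose in LIV and 4 fell in SM. Their mean level ran from 9.27 to 9.43 on the fed and 8.99 to 9.36 on the fasted WAT arrays, from 6.16 to 6.64 and 6.13 to 6.39 in LIV, and from 8.42 to 8.76 and 8.05 to 8.54 in SM. Their part in the fall of Serpinh1 was not tested. Outside the collagens, Lum changed by -0.62 in WAT, -0.21 in LIV and -0.86 in SM, Thy1 by -0.54, -0.22 and -0.79, and Dcn by 0.06, 0.07 and 0.07. Mfap5 changed by 0.39, 0.02 and 0.25 in the same order, and Pdgfra by 0.22, 0.50 and 0.05. The changes were -0.02, 0.03 and 0.14 for Pi16, and -0.26, 0.02 and -0.38 for Dpt.

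**Figure D2:**
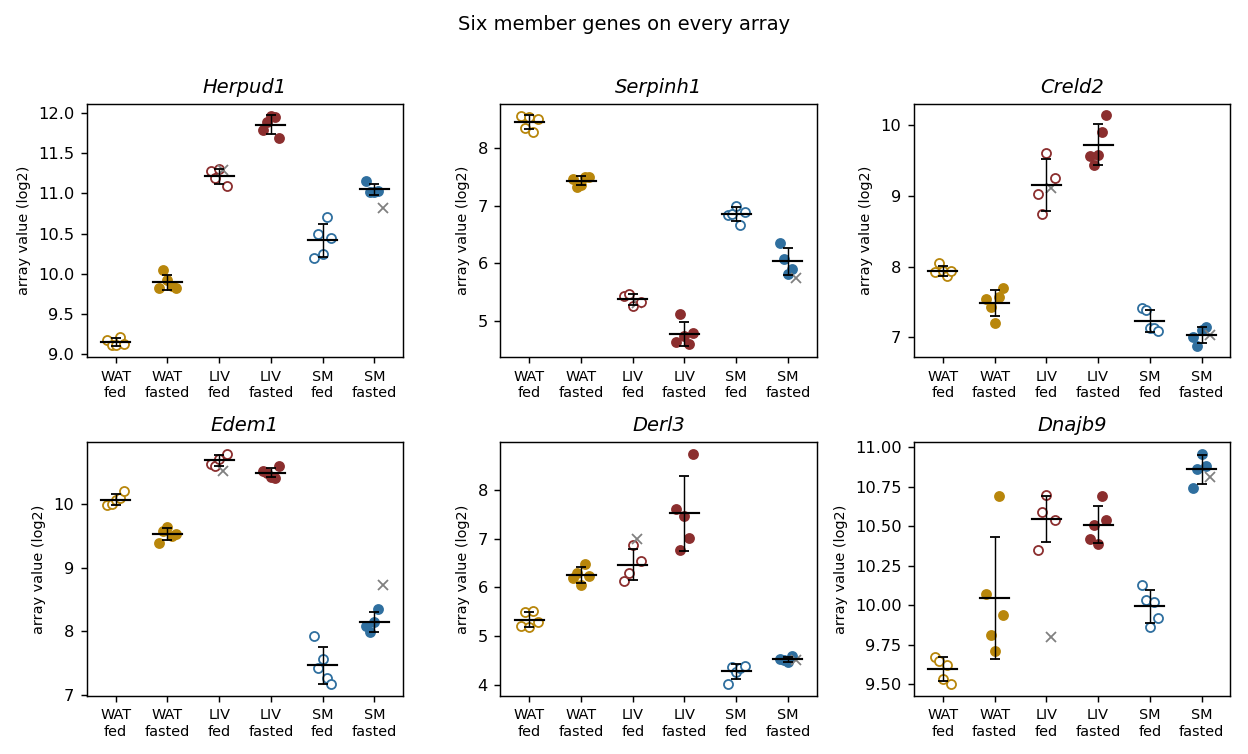
Log2 array values (y axis) of 6 genes on all 30 arrays, fed (open) and fasted (filled) in WAT, LIV and SM. Bars give the mean and SD of the arrays used, and crosses mark fed LIV 4 and fasted SM 5, which were left out. Herpud1 rises and Serpinh1 falls in every tissue without overlap, Creld2 falls in WAT and rises in LIV, and the Derl3 arrays of fasted LIV spread from 6.76 to 8.74.

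Of the 8 degradation genes, 2 rose and 1 fell in WAT, 2 rose and 1 fell in LIV, and 3 rose and 0 fell in SM. Herpud1 organizes the HRD1 ubiquitin ligase complex and is a target of ATF6, XBP1 and ATF4. It read 9.18, 9.11, 9.12, 9.22 and 9.13 in fed WAT and 9.82, 10.05, 9.92, 9.85 and 9.82 in fasted WAT, a rise of 0.74 ± 0.08 (adjusted p = 2.21e-08). In LIV it read 11.27, 11.19, 11.30 and 11.09 in fed and 11.78, 11.88, 11.96, 11.95 and 11.68 in fasted mice, a rise of 0.64 ± 0.08 (adjusted p = 1.91e-06). In SM it read 10.19, 10.50, 10.25, 10.70 and 10.44 in fed and 11.15, 11.01, 11.01 and 11.03 in fasted mice, with 10.82 on the omitted fasted SM 5, a rise of 0.63 ± 0.08 (adjusted p = 9.35e-07). The folds were 1.67, 1.56 and 1.55, and the groups did not overlap in any tissue.

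Derl3, a derlin of the export channel that is abundant in secretory cells, rose in WAT and LIV. It read 5.22, 5.50, 5.19, 5.51 and 5.30 in fed and 6.19, 6.29, 6.05, 6.49 and 6.23 in fasted WAT, without overlap, a rise of 0.90 ± 0.21 (adjusted p = 0.00185). In LIV it read 6.13, 6.30, 6.86 and 6.55 in fed and 7.61, 6.76, 7.46, 7.01 and 8.74 in fasted mice, a rise of 1.06 ± 0.23 (adjusted p = 0.00179). The LIV groups overlapped by fed LIV 3 and fasted LIV 2, the omitted fed LIV 4 read 7.00, inside the fasted range, and without fasted LIV 5, the highest array, the rise was 0.75. With LIV fitted on its own the adjusted p was 0.0729. In SM the arrays ran from 4.02 to 4.39 in fed and 4.47 to 4.60 in fasted mice, without overlap, a change of 0.25 ± 0.23 (adjusted p = 0.502). Derl3 also marks plasma cells. Of the other 7 plasma cell markers, Irf4, which adipocytes also express, rose in WAT and Prdm1 fell there, and Jchain, Mzb1 and Tnfrsf17 changed by 0.07, -0.08 and 0.01 in WAT and by -0.16, 0.19 and 0.03 in LIV. The mean level of the 8 markers, Derl3 included, ran from 4.87 to 5.51 on the fed and 5.39 to 5.86 on the fasted WAT arrays, and from 5.02 to 5.17 and 5.15 to 5.39 in LIV. The largest changes within the WAT mean were those of Irf4 (3.82) and of Derl3 itself (0.90), while Prdm1 changed by -0.50, Sdc1 by 0.10 and Pou2af1 by 0.07. The part of these markers in the rise of Derl3 was not tested. Its relatives Derl1 and Derl2 changed in no tissue; Derl2 passed the test under 1.3-fold in LIV, with -0.29 ± 0.08 (adjusted p = 0.0201).

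Edem1 and Edem2 trim mannose from glycoproteins and so mark them for degradation. Edem1 fell in WAT and rose in SM. It read 9.98, 10.00, 10.06, 10.09 and 10.20 in fed and 9.38, 9.57, 9.63, 9.50 and 9.53 in fasted WAT, a change of -0.54 ± 0.09 (adjusted p = 6.58e-05), and 7.92, 7.42, 7.56, 7.26 and 7.17 in fed and 8.09, 7.99, 8.15 and 8.35 in fasted SM, a change of 0.68 ± 0.10 (adjusted p = 8.79e-06). Neither pair of groups overlapped, although fed SM 1 came close to the fasted arrays, and the omitted fasted SM 5 was the highest SM array at 8.73. In LIV the fed arrays read 10.63, 10.60, 10.71 and 10.79, the fasted arrays 10.52, 10.49, 10.43, 10.41 and 10.59, and the change was -0.19 ± 0.10 (adjusted p = 0.235), with the fasted arrays just below the fed ones and the omitted fed LIV 4 at 10.52, inside the fasted range. Its change in WAT minus that in SM was -1.22 ± 0.14 (adjusted p = 3.27e-07), and its change in SM minus that in LIV 0.87 ± 0.14 (adjusted p = 6.35e-05).

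Edem2 fell in LIV by 0.43 ± 0.06 (adjusted p = 1.11e-05), with fed arrays at 8.41 to 8.58 and fasted arrays at 7.98 to 8.19. In SM it changed the other way under 1.3-fold, with 0.28 ± 0.06 (adjusted p = 0.000874), and in WAT by -0.17 ± 0.06 (adjusted p = 0.0236). The SM and LIV changes of Edem2 differed by 0.71 ± 0.09 (adjusted p = 8.73e-07). Syvn1 (HRD1), the ubiquitin ligase of the export complex, rose in SM by 0.53 ± 0.08 (adjusted p = 9.4e-06), with fed arrays at 7.00 to 7.18 and fasted arrays at 7.46 to 7.79, and changed by -0.03 in WAT and 0.06 in LIV. The SM change of Syvn1 exceeded that in LIV by 0.47 ± 0.11 (adjusted p = 0.00327). Sel1l, the adaptor of HRD1, changed by 0.08, 0.14 and -0.11 in WAT, LIV and SM, with no adjusted p under 0.05.

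Of the 4 genes of the sensor arms, Ern1 and Atf6 rose in SM, Ern1 fell in LIV, and none changed in WAT by 1.3-fold. Ern1, whose product splices Xbp1, read 7.49, 7.40, 7.42, 7.42 and 7.26 in fed and 8.07, 8.01, 8.07 and 8.13 in fasted SM, a change of 0.68 ± 0.06 (adjusted p = 6.33e-09), and 9.29, 9.46, 9.42 and 9.34 in fed and 8.81, 8.66, 8.88, 8.73 and 8.95 in fasted LIV, a change of -0.57 ± 0.06 (adjusted p = 2.77e-07). In WAT it read 7.43, 7.43, 7.63, 7.43 and 7.40 in fed and 7.77, 7.62, 7.82, 7.72 and 7.84 in fasted mice, and the change of 0.29 ± 0.06 (adjusted p = 0.000604) stayed under 1.3-fold. The WAT arrays overlapped by fed WAT 3, and the SM and LIV arrays did not overlap. The SM and LIV changes differed by 1.25 ± 0.09 (adjusted p = 1.62e-10), the WAT and LIV changes by 0.86 ± 0.09 (adjusted p = 7.72e-08), and the WAT and SM changes by -0.39 ± 0.09 (adjusted p = 0.00215).

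Atf6 rose in SM, where it read 8.63, 8.70, 8.77, 8.69 and 8.66 in fed and 9.05, 9.00, 9.12 and 9.15 in fasted mice, by 0.39 ± 0.05 (adjusted p = 2.38e-07), which is just past 1.3-fold and came under it without fed SM 1 (0.38), fasted SM 3 (0.38) or fasted SM 4 (0.37) and after cyclic loess (0.37). In WAT it read 8.76, 8.74, 8.65, 8.63 and 8.64 in fed and 8.90, 8.93, 8.88, 8.93 and 8.96 in fasted mice, a change of 0.23 ± 0.04 (adjusted p = 0.000124) under 1.3-fold. In LIV it read 9.45, 9.48, 9.58 and 9.53 in fed and 9.33, 9.41, 9.37, 9.36 and 9.42 in fasted mice, a change of -0.14 ± 0.05 (adjusted p = 0.0487). The groups did not overlap in any tissue, with the fasted arrays above the fed arrays in WAT and SM and below them in LIV. The omitted fed LIV 4 read 9.34, inside the fasted range. The SM and LIV changes of Atf6 differed by 0.53 ± 0.06 (adjusted p = 1.18e-06).

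Xbp1 passed the test in LIV and SM in opposite directions, both under 1.3-fold. It read 10.80, 11.02, 11.04 and 10.83 in fed and 10.63, 10.57, 10.61, 10.64 and 10.64 in fasted LIV, a change of -0.31 ± 0.07 (adjusted p = 0.00233), and 9.80, 9.81, 9.80, 9.75 and 9.66 in fed and 10.23, 10.05, 10.07 and 10.15 in fasted SM, a change of 0.36 ± 0.07 (adjusted p = 0.000185). Neither pair of groups overlapped, and the omitted fed LIV 4 read 10.68, between the groups. In WAT the fed arrays read 10.54, 10.76, 10.80, 10.48 and 10.78, the fasted arrays 10.55, 10.56, 10.51, 10.59 and 10.72, and the change was -0.09 ± 0.06 (adjusted p = 0.366). The SM and LIV changes differed by 0.67 ± 0.10 (adjusted p = 1.12e-05) and the WAT and SM changes by -0.45 ± 0.09 (adjusted p = 0.000873).

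Eif2ak3 changed in no tissue. It read 7.07, 7.24, 7.26, 7.12 and 7.04 in fed and 7.00, 7.11, 6.92, 7.21 and 7.20 in fasted WAT, 7.16, 7.43, 7.47 and 7.49 and 7.12, 7.11, 7.25, 7.28 and 7.20 in LIV, and 6.31, 6.27, 6.22, 6.07 and 6.07 and 6.20, 5.99, 6.42 and 5.99 in SM. The groups overlapped in all 3 tissues, with changes of -0.06 ± 0.08 (adjusted p = 0.709), -0.19 ± 0.09 (adjusted p = 0.155) and -0.04 ± 0.09 (adjusted p = 0.82). The omitted fasted SM 5 read 6.75, above every other SM array.

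**Figure D3:**
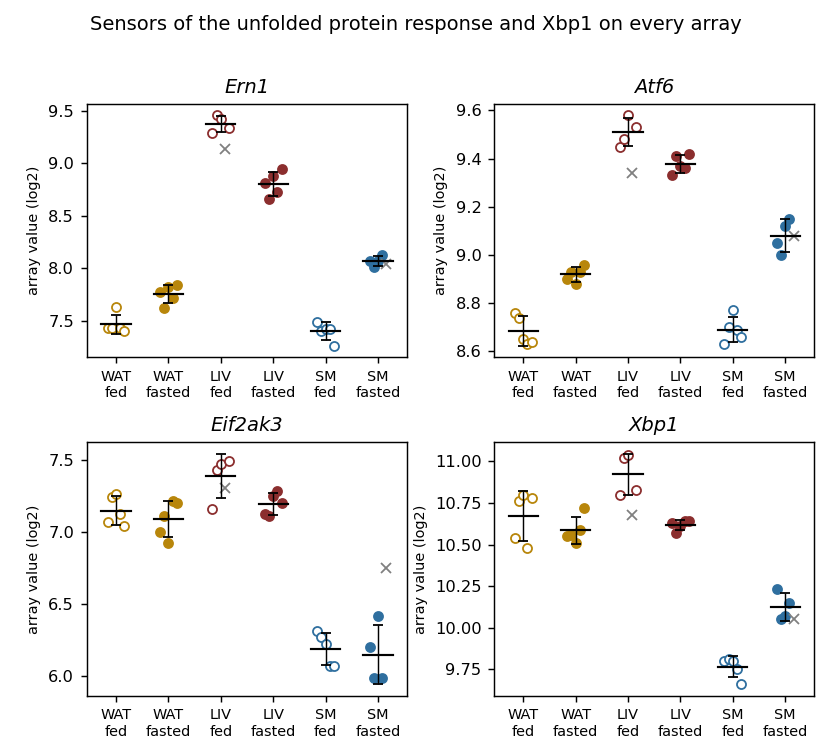
Log2 array values (y axis) of Ern1, Atf6, Eif2ak3 and Xbp1 on all 30 arrays, drawn as for the 6 genes above: open points fed, filled points fasted, bars the mean and SD, and crosses the 2 arrays left out. Ern1, Atf6 and Xbp1 are higher in fasted than fed SM and lower in fasted than fed LIV, and Eif2ak3 overlaps in each tissue.

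The translocon genes pass nascent chains into the ER, and 2 of the 5 fell in WAT, 0 in LIV and 1 in SM. The change was negative for all 5 in WAT and LIV and for 4 of 5 in SM. Ssr1, a subunit of the translocon-associated complex, fell in WAT by 0.40 ± 0.07 (adjusted p = 5.25e-05), with fed arrays at 9.87 to 10.06 and fasted arrays at 9.42 to 9.65, and passed the test under 1.3-fold in LIV with -0.26 ± 0.07 (adjusted p = 0.0168) and in SM with -0.35 ± 0.07 (adjusted p = 0.000785). Its partner Ssr3 did so in all 3 tissues, with -0.19, -0.22 and -0.22, and the fed and fasted arrays used did not overlap for Ssr1 or Ssr3 in any tissue. The omitted fed LIV 4 read 9.76 for Ssr1 and 9.96 for Ssr3, inside the fasted ranges, and the omitted fasted SM 5 read 9.03 for Ssr1, inside the fed range. Ssr2 changed by -0.25 ± 0.06 (adjusted p = 0.00158) in WAT, -0.02 in LIV and -0.21 ± 0.06 (adjusted p = 0.0122) in SM. Sec61a1, the channel itself, fell in WAT by 0.39 ± 0.07 (adjusted p = 4.55e-05), with fed arrays at 10.48 to 10.62 and fasted arrays at 9.98 to 10.40, and changed by 0.30 ± 0.07 (adjusted p = 0.00179) in SM, so that the WAT and SM changes differed by -0.69 ± 0.10 (adjusted p = 7.06e-06). The falls of Ssr1 and Sec61a1 in WAT were just past 1.3-fold: without fasted WAT 3 they were -0.37 and -0.37, and Sec61a1 also came under it without fed WAT 3 (-0.37) or fasted WAT 1 (-0.345).

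Sec61b, the small subunit of the channel, fell in SM by 0.48 ± 0.14 (adjusted p = 0.0149), with fed arrays at 5.74 to 6.37 and fasted arrays at 5.14 to 5.79, which overlapped. In LIV its change of -0.42 ± 0.14 (adjusted p = 0.0562) missed the threshold, and the omitted fed LIV 4 read 7.90, above the other LIV arrays. Its other 2 probe sets changed by -0.27 and -0.28 in SM and by -0.45 and -0.39 in LIV, the LIV changes with adjusted p of 0.00249 and 0.00238. The SM call was lost with all 30 arrays (-0.43, adjusted p = 0.0579), with the mean of the 3 probe sets (-0.34), without fed SM 5 (-0.38, adjusted p = 0.0576) and without fasted SM 4 (-0.37, adjusted p = 0.0893).

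In fed mice, 25 of the 33 genes had their highest level in LIV against both other tissues, each probe set being set against itself. The LIV level was above WAT for 26 members and below it for 2 (all genes 18.7% and 25.7%), and above SM for 31 and below it for 1 (all genes 21.8% and 26.2%). The SM level was above WAT for 3 members (Dnajb9, Herpud1 and Ssr3) and below it for 24 (all genes 20.1% and 27.2%), and 23 members had their lowest level in SM. Shares over all genes are not given for a highest or lowest level against both other tissues. The difference between LIV and SM was widest for Pdia5, at 3.94 ± 0.08 (adjusted p = 2.62e-26), and reached 3.22 for Edem1 and 3.21 for Sdf2l1. The other 8 members included Serpinh1, with a difference of -3.08 between LIV and WAT and of -1.48 between LIV and SM, and Derl1, with both highest in WAT. The LIV level did not exceed WAT by the threshold for Canx (0.36), Xbp1 (0.25), Eif2ak3 (0.24), Ssr1 (0.02) and Ssr2 (-0.21), nor SM for Ssr3 (-0.17). Among the sensors, fed WAT and SM did not differ beyond their spread for Ern1, with -0.07 ± 0.06 (adjusted p = 0.331), and Atf6, with 0.01 ± 0.04 (adjusted p = 0.909), and both were higher in LIV. 

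**Figure D4:**
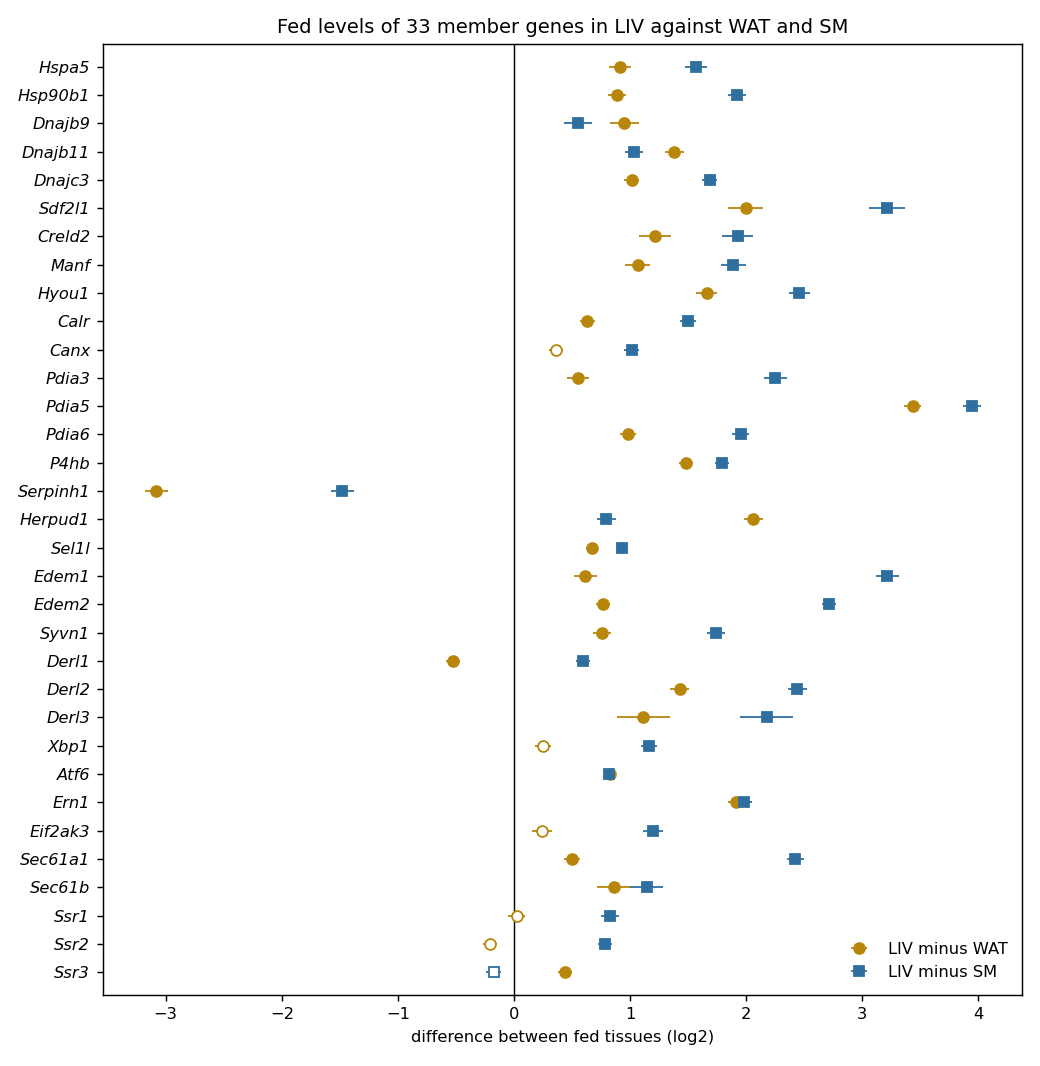
Difference of the fed levels (log2, x axis) of the 33 genes between LIV and WAT (circles) and between LIV and SM (squares), with the standard error. Filled points passed the test at 1.3-fold. Nearly all points lie to the right of 0, Serpinh1 to the left with both, and the points of Atf6 coincide.

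The rest of the ER folding and export machinery was measured by lists of genes outside the 34. Of 37 other chaperones and folding enzymes, 1 rose and 6 fell in WAT, 0 rose and 1 fell in LIV, and 1 rose and 2 fell in SM. Qsox1, a sulfhydryl oxidase, rose in WAT by 0.72 ± 0.10 (adjusted p = 1.17e-06) and in SM by 0.48 ± 0.10 (adjusted p = 0.000696), and Fkbp14, a prolyl isomerase of collagen folding, fell in WAT, with a change of -0.59 ± 0.08 (adjusted p = 6.36e-07), and in SM, with -0.69 ± 0.08 (adjusted p = 1.72e-07). Of 23 other degradation genes, 3 rose and 1 fell in WAT, 0 changed in LIV by the limma test, and 4 rose and 1 fell in SM. In LIV, 2 of the 23 passed the test without the 1.3-fold minimum. Rnf5, a ubiquitin ligase, fell in WAT, with a change of -0.91 ± 0.11 (adjusted p = 1.77e-07), and Ubxn4 and Nploc4, which link ubiquitinated chains to the VCP ATPase, rose in SM by 0.68 ± 0.06 (adjusted p = 3.43e-09) and 0.60 ± 0.05 (adjusted p = 8.06e-10). Of 18 other translocon, signal recognition and signal peptidase genes, 1 rose in WAT, and 1 rose and 1 fell in each of LIV and SM. The oligosaccharyltransferase, which attaches N-glycans to nascent chains, had no rise among 11 genes, with 2, 1 and 2 falls in WAT, LIV and SM. Ostc, one of its subunits, fell in WAT, with a change of -0.66 ± 0.08 (adjusted p = 2.15e-07), and in SM, with -0.46 ± 0.08 (adjusted p = 0.000112).

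Of 16 other sensors and factors of the response, 2 rose and 1 fell in WAT, 1 rose and 3 fell in LIV, and 2 rose and 3 fell in SM. Creb3l1, an ER-bound factor of the ATF6 type that drives collagen genes, fell in WAT, with a change of -0.65 ± 0.13 (adjusted p = 0.000398), and in SM, with -0.83 ± 0.14 (adjusted p = 5.18e-05). Eif2ak4 (GCN2), the kinase of eIF2 that senses amino acid shortage, rose in SM by 0.70 ± 0.08 (adjusted p = 2.31e-07). Nfya, a subunit of the CCAAT-binding factor, rose in WAT by 0.38 ± 0.08 (adjusted p = 0.000989) and in LIV by 0.43 ± 0.09 (adjusted p = 0.00134). Nfyb, another subunit, rose in WAT by 0.50 ± 0.08 (adjusted p = 1.43e-05) and fell in LIV, with a change of -0.40 ± 0.08 (adjusted p = 0.00121). The 23 measured targets of PERK and ATF4 had these counts: 7 rose and 7 fell in WAT, 4 rose and 1 fell in LIV, and 12 rose and 1 fell in SM, with a median change of 0.0557, 0.0323 and 0.405. Chac1, a glutathione-degrading enzyme, rose in WAT by 1.88 ± 0.15 (adjusted p = 4.5e-10), Asns (asparagine synthetase) rose in LIV by 1.15 ± 0.27 (adjusted p = 0.00435), and Ppp1r15a (GADD34), which reverses eIF2 phosphorylation, rose in SM by 1.80 ± 0.09 (adjusted p = 4.09e-14). Chac1 also rose in SM (1.15, adjusted p = 4.87e-06) and fell in LIV, with a change of -0.75 (adjusted p = 0.00212), and Asns fell in SM, with a change of -0.79 (adjusted p = 0.0373). Ddit4, which the paper describes as a p53 target, rose most of this list, by 2.97 in WAT, 2.16 in LIV and 4.15 in SM. The 7 falls in WAT were Cth (-1.04), Stc2 (-0.91), Psat1 (-0.84), Vldlr (-0.73), Gadd45a (-0.68), Phgdh (-0.57) and Shmt2 (-0.48). Of these, Cth, Vldlr and Gadd45a rose in SM. Genes of this list also respond to amino acid shortage and other stimuli. Of 27 cytosolic heat shock proteins, 2 rose and 5 fell in WAT, 3 rose in LIV and 4 rose in SM. Bag3, a co-chaperone of Hsp70, rose in all 3 tissues, by 0.51 ± 0.10 (adjusted p = 0.000236), 0.63 ± 0.11 (adjusted p = 0.000104) and 0.51 ± 0.11 (adjusted p = 0.000581).

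**Figure D5:**
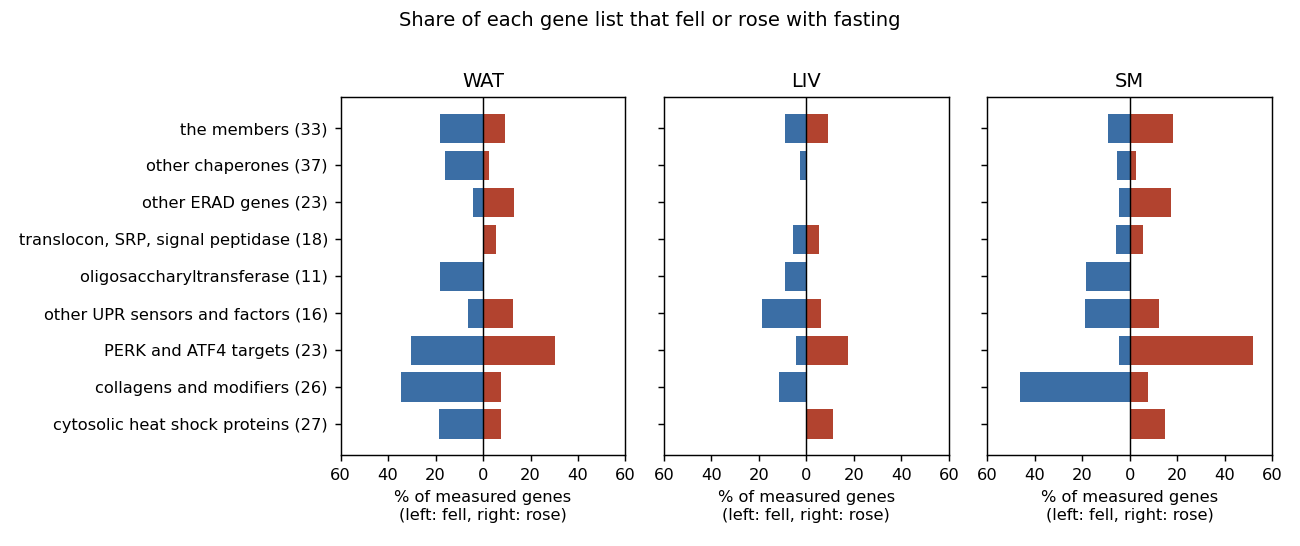
Share of each gene list, in percent of its measured genes (number in brackets), that fell (blue, to the left) or rose (red, to the right) with fasting in WAT, LIV and SM. The members have 6 falls and 3 rises in WAT and the reverse in SM, and the PERK and ATF4 targets have 12 rises and 1 fall in SM.

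Markers of other cell types moved with fasting in some tissues. In LIV, 6 of 12 macrophage markers fell and 0 rose, and their mean level ran from 7.35 to 7.78 on the fed and 6.83 to 7.32 on the fasted arrays. These values stand beside the LIV falls of Edem2, Ern1 and Serpinh1, and their part in them was not tested. Elsewhere the macrophage marker Cd163 rose in WAT (1.13) and SM (0.73), and Cd68 rose in SM (0.52). Itgax (-0.69) and Timd4 (-0.63) fell in WAT. The muscle fibre marker Acta1 (1.53) and the mesothelial marker Wt1 (0.62) rose in WAT, and the hepatocyte marker Hnf4a fell there (-0.76). In SM the endothelial marker Kdr fell (-0.82) and the mesothelial marker Gpm6a rose (0.82). In SM, 3 of 9 adipocyte markers fell and 1 rose, with mean levels of 8.45 to 10.2 on the fed and 8.52 to 9.31 on the fasted arrays. In WAT, 1 of 9 adipocyte markers fell. The 9 adipocyte markers averaged 12.1 to 12.3 on the fed and 11.8 to 12.2 on the fasted WAT arrays.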

How the data were processed

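Each tissue sample was hybridized to 1 Affymetrix Mouse Gene 1.1 ST array. The authors deposited a table of log2 values for 28815 probe sets, which their processing notes credit to RMA and Partek, with no version given. RMA summarizes the probes of a set and quantile-normalizes the arrays, so a value is relative to the other arrays and has no count or depth. Probe sets were named from the platform annotation, and of a gene's probe sets the one with the highest mean was used. Dnajc3 has 2 probe sets with identical values.

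Changes were tested with limma 3.58.1 (R 4.3.3) on 28 arrays with 6 group means and Benjamini-Hochberg adjustment over all probe sets. Errors are standard errors of the fit, with 5 arrays per group, or 4 in fed LIV and fasted SM. The p-values measure the spread between mice of 1 experiment, estimated for each probe set over all 6 groups together. A tissue's error therefore also holds the spread in the other tissues, as for Derl3 in SM. Promoters were read from RefSeq (GRCm38.p6). Array values are given for members called in all 3 tissues, called in opposite directions, among the 2 largest rises and 2 largest falls of a tissue, or in the sensor arms, and Hspa5 was added after its values were seen. Of each other list, up to 3 called genes of largest change were eligible to be named, and Ero1b, Dcn, Lum, Thy1, Prdm1, Jchain, Mzb1 and Tnfrsf17 were added in the same way as Hspa5. So were Dpt, Pi16, Mfap5, Pdgfra, Sdc1, Pou2af1, Acacb, Pan2, Acnat2 and the falls of PERK and ATF4 targets in WAT. The members and lists were chosen with earlier results of these data known. The scripts were tested on simulated data. Python 3.11.15 with pandas 2.3.3 and matplotlib 3.10.9 was used for counts and plots.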

Additional observations from a re-analysis of the deposited data

Results flagged for a closer look

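In 7 of 198 groups of arrays (33 genes in 6 groups) the gap of 1 array to the nearest other array, as a share of the group's whole range, was above Dixon's 95% critical value, which chance alone passes in about 1 in 20 groups. Calr read 11.48 on fasted LIV 2, where the other 4 arrays lay between 11.72 and 11.81. Canx read 11.23 on fed WAT 1, where the other 4 arrays lay between 11.34 and 11.36. Pdia5 read 9.66 on fasted LIV 4, where the other 4 arrays lay between 9.44 and 9.49. Manf read 7.23 on fasted LIV 2, where the other 4 arrays lay between 7.61 and 7.66. Derl2 read 9.02 on fasted LIV 2, where the other 4 arrays lay between 9.28 and 9.38. Ern1 read 7.63 on fed WAT 3, where the other 4 arrays lay between 7.40 and 7.43. Sec61b read 5.77 on fed WAT 4, where the other 4 arrays lay between 6.30 and 6.44. Fasted LIV 2 was the array in 3 of the 7.

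The fasting change differed between tissues in 23 tests of the difference itself, over 14 genes, by limma with Benjamini-Hochberg adjustment over all probe sets. The change in WAT minus that in LIV was -0.46 ± 0.13 for Hspa5 (adjusted p = 0.0107), 0.48 ± 0.17 for Dnajb9 (adjusted p = 0.0444), -0.43 ± 0.11 for Dnajb11 (adjusted p = 0.0055), -0.61 ± 0.21 for Sdf2l1 (adjusted p = 0.0433), -1.02 ± 0.19 for Creld2 (adjusted p = 0.000237), 0.86 ± 0.09 for Ern1 (adjusted p = 7.72e-08) and -0.42 ± 0.14 for Serpinh1 (adjusted p = 0.0315). The change in WAT minus that in SM was -0.42 ± 0.13 for Pdia3 (adjusted p = 0.0282), -0.45 ± 0.09 for Xbp1 (adjusted p = 0.000873), -1.22 ± 0.14 for Edem1 (adjusted p = 3.27e-07), -0.45 ± 0.08 for Edem2 (adjusted p = 0.000245), -0.56 ± 0.11 for Syvn1 (adjusted p = 0.00049), -0.39 ± 0.09 for Ern1 (adjusted p = 0.00215) and -0.69 ± 0.10 for Sec61a1 (adjusted p = 7.06e-06). The change in SM minus that in LIV was 0.90 ± 0.17 for Dnajb9 (adjusted p = 0.000407), -0.77 ± 0.19 for Creld2 (adjusted p = 0.00596), 0.67 ± 0.10 for Xbp1 (adjusted p = 1.12e-05), 0.87 ± 0.14 for Edem1 (adjusted p = 6.35e-05), 0.71 ± 0.09 for Edem2 (adjusted p = 8.73e-07), 0.47 ± 0.11 for Syvn1 (adjusted p = 0.00327), 0.53 ± 0.06 for Atf6 (adjusted p = 1.18e-06), 1.25 ± 0.09 for Ern1 (adjusted p = 1.62e-10) and 0.47 ± 0.10 for Sec61a1 (adjusted p = 0.00129).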

How the results depend on the processing

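No change of a member that rose or fell turned its direction under the settings tried. Without a minimum change, 18 members passed the test in WAT (5 rose, 13 fell), 13 in LIV (5 and 8) and 17 in SM (10 and 7). With a minimum of 1.5-fold, 4 were called in WAT and 3 in LIV, and the change differed between WAT and LIV for 3 members and between WAT and SM for 2. With an adjusted p under 0.01 the change differed between WAT and LIV for 3. Shares over all genes are not given for these thresholds, so the counts cannot be set against them. Leaving out 1 array at a time gave 7 to 9 calls in WAT, 6 to 7 in LIV and 7 to 10 in SM. The differences between tissues then numbered 5 to 7 (WAT and LIV), 6 to 8 (WAT and SM) and 9 to 10 (SM and LIV), and those of the fed levels 28 (LIV and WAT), 32 (LIV and SM) and 26 to 28 (SM and WAT). Without fasted WAT 4, the rise of Dnajb9 in WAT was 0.29 (adjusted p = 0.00703). Fitted on its own, LIV had 5 calls, with Creld2 and Derl3 lost and Sec61b gained. The fall of Sec61b in LIV was called under 7 settings, such as all 30 arrays (-0.58). Xbp1 in SM reached 1.3-fold without fasted SM 2 (0.39) or fasted SM 3 (0.38), and Ssr1 in SM without fed SM 4 (-0.41).

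Of the members' changes, 14 that were not called turned their sign under some setting, with no adjusted p under 0.617. With all 30 arrays the change became -0.04 for Pdia5 in LIV, -0.00438 for P4hb in LIV, 0.115 for Dnajb9 in LIV, 0.0134 for Canx in SM, -0.0252 for Dnajb11 in SM, 0.0289 for Manf in SM and 0.0803 for Eif2ak3 in SM. With array weights it became -0.0217 for Pdia5 in LIV and -0.00989 for P4hb in LIV. With fasted SM 1 left out in place of fasted SM 5 it became 0.0468 for Canx in SM, -0.0197 for Dnajb11 in SM, 0.0544 for Manf in SM and 0.0983 for Eif2ak3 in SM. After cyclic loess it became -0.00468 for Pdia5 in LIV and -0.0314 for Dnajb11 in SM. With the replicate block it became -0.0361 for Pdia5 in LIV and -0.0256 for Dnajb11 in SM. With 1 array left out at a time, changes crossed 0 with ranges of -0.0598 to 0.0125 for Canx in WAT, -0.0361 to 0.036 for Pdia5 in LIV, -0.0356 to 0.0362 for P4hb in LIV, -0.0989 to 0.0171 for Dnajb9 in LIV, -0.0528 to 0.16 for Manf in LIV, -0.0128 to 0.131 for Syvn1 in LIV, -0.0337 to 0.00193 for Ssr2 in LIV, -0.0276 to 0.0618 for Hsp90b1 in SM, -0.062 to 0.00117 for Calr in SM, -0.0519 to 0.0292 for Canx in SM, -0.0322 to 0.0567 for Dnajb11 in SM, -0.0539 to 0.0264 for Derl1 in SM and -0.13 to 0.0142 for Eif2ak3 in SM.

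The replicate numbers do not pair fed with fasted mice: same-numbered arrays deviated with correlations of -0.252 to 0.163. Across tissues, where the same mice were sampled, same-numbered arrays deviated with correlations of -0.122 to 0.177, and the labels do not say that a number is a mouse. With the replicate number of a diet as a random block across tissues (correlation 0.027), each comparison called the same members. If a number is not a mouse, that fit does not account for tissues taken from the same mouse. With the replicate number as a fixed block within each tissue, 9 members were called in WAT, 7 in LIV (Sec61b gained) and 9 in SM. The change then differed for 6 members between WAT and LIV, 6 between WAT and SM and 10 between SM and LIV.

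Arrays give no depth, and their number (4 or 5 per group) limits the precision. Whole tissue was measured, at 1 time, and Xbp1 splicing and protein were not measured.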
